A study of Mus musculus with 16 samples.

Results

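The 10 libraries made after an injection of PBS were ordered by the share of their counts that came from immunoglobulin genes, and the other genes were followed along that order within each genotype. The 10 libraries were all those labelled PBS among the 16 of the series, 5 from wild-type mice and 5 from Gata2 +9.5(Ets)-/- mice. The share was the sum of counts over genes whose symbols begin with Ighv, Igkv, Iglv, Igkc, Iglc, Igha, Ighm, Ighd or Ighg, divided by the total of the library. It was therefore chosen from measured values and is given as a description, with no test. By these prefixes 381 of 53342 genes counted as immunoglobulin genes. One of them, Ighmbp2, encodes a helicase and held at most 0.0468% of the immunoglobulin counts of a PBS library.

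All libraries came from LSK cells of mouse bone marrow, the fraction without lineage antigens and with Sca-1 and c-Kit on the surface, in which hematopoietic stem cells and early progenitors lie. The mice were on a C57BL/6J background and 8 to 14 weeks old. The mutant carries, on both copies, a C-to-T substitution in an Ets motif of the +9.5 enhancer, an intronic regulatory element of Gata2. Marrow was taken 10 days after the injection, and 3000 to 10000 cells were sorted per replicate by the absence of B220, CD3, CD4, CD5 and CD8 and the presence of Sca-1 and c-Kit. The remaining 6 libraries, 3 per genotype, came from mice given 5-fluorouracil (5-FU) at 250 mg/kg, which is toxic to cycling cells. They took no part in the slopes below. The labels do not say whether replicates were separate mice, so p values measure the spread between these samples, which may be technical.

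Immunoglobulin genes are transcribed by B cells and, at far higher rates, by plasma cells, the antibody-secreting end stage of the B lineage. Plasma cells keep a transcription programme set by Irf4, Prdm1 and Xbp1, carry syndecan-1 (Sdc1) on the surface and hold a large endoplasmic reticulum (ER) in which antibody chains are imported, glycosylated, folded and checked. They settle in the marrow and lose much of the surface B220 that marks B cells. In RNA from a bulk sample, fewer cells of a type and less RNA per cell cannot be told apart.

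The share ran from 6.38 to 44.2% in wild type and from 3.67 to 50.2% in the mutant. In both genotypes the order of the replicates by rising share was 5, 4, 1, 2 and 3. The wild-type libraries stood in that order at 6.38, 25.2, 31.1, 36.0 and 44.2%, and the mutant libraries at 3.67, 12.2, 28.9, 34.4 and 50.2%. The range came to 2.79 doublings in wild type and 3.77 in the mutant. Each sample bears a code in its label, whose meaning the labels do not give. In both PBS groups replicates 1, 2 and 3 have a code with a leading zero and shares of at least 28.9%, and replicates 4 and 5 have a code without one and shares of at most 25.2%. Total counts of the PBS libraries lay between 19370153 and 27162961, and counts outside immunoglobulin genes between 11140504 and 22925198, the fewest at the highest shares. The 10 most abundant other genes held 3.12% of the other counts in the wild-type library with the lowest share and 12.4% in the one with the highest, and 3.31% and 13.9% in the mutant.

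**Figure D1:**
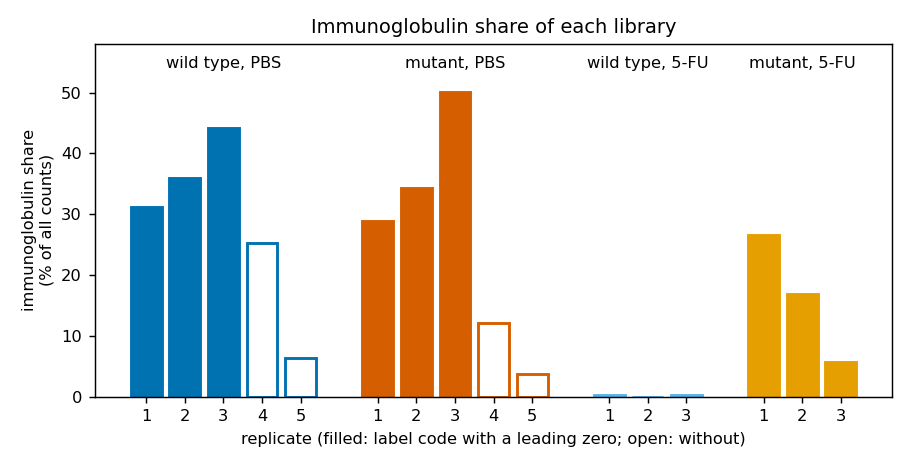
Immunoglobulin share of each of the 16 libraries (y axis, % of all counts; a bar is 1 library, grouped by genotype and treatment, with replicate numbers on the x axis). Filled bars have label codes with a leading zero and open bars codes without one; in both PBS groups the filled bars (28.9% and above) stand above the open ones (25.2% and below).

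Expression of the remaining 52946 genes was scaled to counts per 1000000 (CPM) without immunoglobulin genes, and 14497 genes passed a filter on low counts. For each gene a slope was fitted over the 10 libraries with genotype in the model. A slope is the log2 change in the scaled level per doubling of the share, and a gene is said to rise or fall with the share where its adjusted p was under 0.05. Because other genes are scaled without immunoglobulin genes, a gene that kept a fixed ratio to the immunoglobulin counts has a slope above 1 on this scale. Of the genes tested, 1031 rose (7.11% of all) and 1042 fell (7.19%). The median slope was 0.48 among rises, -0.40 among falls and -0.03 over all genes tested. Rises were steeper at the extreme: 164 genes rose by at least 1 per doubling, and 5 fell by as much. All 1031 rises were positive and all 1042 falls negative when each genotype had its own slope. These genes were picked by a slope over the same 10 libraries, so the agreement of sign is no independent evidence. The test of the difference between the 2 genotypes' slopes called 0 genes, with 72 at an unadjusted p under 0.05, and DESeq2 and limma-voom called 0 as well. With its own slope, wild type alone called 0 genes and the mutant alone 94 rises (0.648%) and 2 falls (0.0138%).

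The counts depend on what else stands in the model. Same-numbered libraries of the 2 genotypes deviated together, and they also have like shares, 0.07 to 1.05 apart on the log2 scale. The order of replicates by share is the same in both genotypes, so genes that follow the share deviate together without any pairing. Whether the numbers pair the PBS libraries cannot be told from these deviations. A block on the number leaves only the differences in share within a number to fit a slope. With the replicate number as a block, 5 genes rose (0.0345% of those tested) and 2 fell (0.0138%). The 5 were Mzb1, Derl3, Eaf2, Pou2af1 and Ly6d, all members of the plasma cell list described below. Ly6d is also on the list of lymphoid-primed progenitor genes. The 2 falls, Ms4a3 and Mpo, genes of granulocyte-monocyte progenitors, did not pass without the block. Of the 1031 rises 787 kept a positive slope under the block, and of the 1042 falls 873 kept a negative one. With the writing of the code as a covariate 53 genes rose (0.366%) and 0 fell, and 1023 rises and 1028 falls kept their sign. With the digits of the code (its prefix) as a block 89 rose (0.614%) and 5 fell (0.0345%), and 975 and 930 kept their sign. Among the 6 libraries with a leading zero alone 1639 rose and 2454 fell, and among the 4 without one 109 rose and 21 fell. The scaling moves the split between directions. Rises made up 49.7% of calls as reported, 58.7% with RLE factors (1275 rises, 898 falls), 74.0% with upper quartile factors (2161 and 758), and 26.7% with no factor (604 and 1658). By limma-trend on TPM, where the unit and the test differ as well as the scaling, they made up 10.7% (369 and 3088), and the median slope over all genes was -0.20. Leaving out 1 library gave between 134 and 1178 rises and between 6 and 1450 falls. The counts were 134 and 6 without wild-type replicate 5, 145 and 30 without mutant replicate 3, 381 and 212 without wild-type replicate 2, 349 and 114 without mutant replicate 2, 390 and 455 without mutant replicate 4, and 433 and 486 without mutant replicate 5.

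Most plasma cell genes rose with the share. Of 29 tested genes on a list of plasma cell identity 24 rose, 0 fell and 5 did not pass, where 7.11% of all genes tested rose. The list's median slope was 0.80, against -0.03 over all genes tested. Jchain encodes the chain that joins antibody units into polymers (chromosome 5, 88519809 to 88527891, mm10/GRCm38). In order of rising share it stood at 3332, 12652, 24125, 30364 and 69232 CPM in the wild-type libraries and at 1593, 5836, 19330, 31334 and 81011 CPM in the mutant libraries. It was higher at every step in both genotypes, with a slope of 1.45 ± 0.14 (SE, adjusted p = 0.000198). Irf4, a transcription factor of the plasma cell programme (chromosome 13, 30749226 to 30766976), had 18.9, 78.2, 75.7, 77.1 and 144 CPM in wild type. In the mutant it had 6.21, 28.8, 50.3, 57.7 and 138 CPM in the same order. Its slope was 1.05 ± 0.10 (adjusted p = 0.000198); the middle 3 wild-type libraries hardly differed.

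Sdc1 (chromosome 12, 8771323 to 8793715) followed the share less evenly. In wild type it stood at 136 CPM in the library with the lowest share and at 397, 359, 309 and 303 CPM in the next 4, so that above the lowest library it was lower at each higher share. In the mutant it stood at 65.6, 126, 259, 250 and 400 CPM. Its slope was 0.62 ± 0.09 (adjusted p = 0.00223), the smallest of the 3 defining markers. Prdm1 and Xbp1, which encode transcription factors of secreting cells, rose by 0.80 ± 0.11 and 0.91 ± 0.09 per doubling. Slamf7, a surface receptor of plasma cells, rose by 1.19 ± 0.09 and Tnfrsf17, the survival receptor BCMA, by 1.5 ± 0.16. Pou2af1, a coactivator of immunoglobulin transcription, rose by 1.04 ± 0.09. Mzb1, an ER protein that aids antibody assembly, had 58.9, 449, 319, 320 and 996 CPM in wild type and 20.3, 116, 278, 369 and 1230 CPM in the mutant, a slope of 1.41 ± 0.15. Derl3, a membrane protein of the degradation route for misfolded ER proteins, had 25.5, 209, 182, 207 and 520 CPM in wild type and 13.9, 55.7, 203, 256 and 625 CPM in the mutant, a slope of 1.43 ± 0.11. The list's count of rises was 9 with code writing in the model, 20 with the code prefix as a block, 5 with the replicate block, and 18 both without wild-type replicate 5 and without mutant replicate 3. The genes of this list were picked with the immunoglobulin share of these libraries known, so the count is no independent evidence of its direction.

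**Figure D2:**
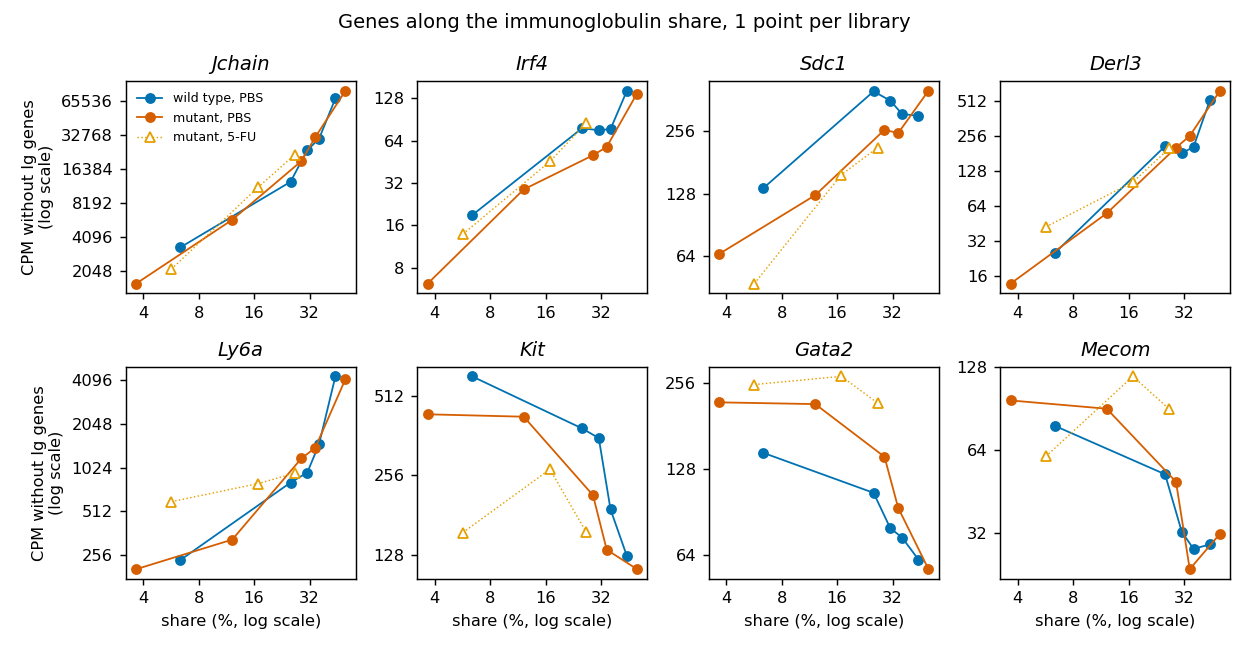
CPM without immunoglobulin genes (y axis, log scale) of 8 genes against the immunoglobulin share (x axis, %, log scale), 1 point per library; filled points are PBS libraries of the 2 genotypes and open triangles the 3 mutant 5-FU libraries, which the slopes did not use. Jchain, Irf4 and Derl3 climb in both PBS lines (Jchain from 3332 to 69232 CPM in wild type), Sdc1 in wild type steps up from 136 to 397 CPM and then declines to 303 CPM, and Kit and Gata2 decline.

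Between libraries with 1 code prefix the same genes could be read apart from the writing of the code. Wild-type replicates 4 and 5 share a prefix and had shares of 25.2 and 6.38%, and Jchain stood at 12652 and 3332 CPM and Irf4 at 78.2 and 18.9 CPM. Mutant replicates 4 and 5 share another prefix and had shares of 12.2 and 3.67%, with Jchain at 5836 and 1593 CPM and Irf4 at 28.8 and 6.21 CPM. Wild-type replicates 1 and 2 share a prefix too, as do mutant replicates 1 and 2, with shares 0.21 and 0.25 apart on the log2 scale. Jchain and Irf4 were higher at the higher share in all 4 pairs. Sdc1 was higher at the higher share in replicates 4 and 5 of both genotypes (397 against 136 CPM and 126 against 65.6 CPM) and lower in replicates 1 and 2 (309 against 359 CPM and 250 against 259 CPM).

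The ER machinery that plasma cells use in quantity rose in part. On a list of ER import and glycosylation 18 of 36 genes rose and 0 fell (median slope 0.27). On a list of ER folding and the unfolded protein response 20 of 39 rose and 0 fell (median 0.28). On a list of ER-to-Golgi transport 9 of 33 rose, 2 fell and 22 did not pass (median 0.12). Among all genes tested 7.11% rose and 7.19% fell. Ssr4, a subunit of the translocon-associated complex, rose by 0.95 ± 0.17 per doubling, from 122 CPM at the lowest to 1500 CPM at the highest share in wild type and from 122 to 1489 CPM in the mutant. Sec11c and Spcs2, subunits of the signal peptidase, rose by 0.74 ± 0.13 and 0.50 ± 0.09. Fkbp2, an ER prolyl isomerase, rose by 0.82 ± 0.11, and Ero1lb, an oxidase that drives disulfide formation, by 0.51 ± 0.07. Edem1, which hands misfolded glycoproteins to degradation, rose by 0.74 ± 0.09. Its wild-type levels were 153, 640, 636, 622 and 545 CPM, a step between the lowest library and the other 4. Its mutant levels were 119, 275, 581, 652 and 678 CPM. Hspa5, the main Hsp70 chaperone of the ER, did not pass, with 522 to 2269 CPM over the 10 libraries. Of the transport genes, the cargo receptor Tmed10 rose by 0.50 ± 0.08, the coatomer subunit Cope by 0.44 ± 0.08 and the retrieval receptor Kdelr3 by 0.81 ± 0.17. Kdelr3 turned to -0.19 among the 6 libraries with a leading zero.

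These ER counts rested on few libraries. Without wild-type replicate 5 the rises fell to 0 of 36 for import, 4 of 39 for folding and 0 of 33 for transport, and without mutant replicate 3 to 2, 5 and 2. Without wild-type replicate 2 they came to 9, 13 and 3, without mutant replicate 2 to 9, 11 and 3, without mutant replicate 4 to 8, 12 and 3, and without mutant replicate 5 to 13, 10 and 4. Without wild-type replicate 4 transport had 7 rises and 5 falls. With code writing in the model 0, 3 and 0 rose, with the prefix as a block 0, 8 and 0, and with the replicate block 0, 0 and 0. On the TPM scale the medians of the 3 lists were 0.04, 0.08 and -0.08, so the direction of the transport list as a whole turned there. It had 4 rises and 4 falls with no scaling factor.

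Promoters of genes that rose were searched for 2 motifs of the unfolded protein response, the ER stress element (ERSE, CCAAT and CCACG with 9 bases of any kind between them) and the unfolded protein response element (UPRE, TGACGTGG), on both strands. The windows, from RefSeq (GRCm38.p6), run from 250 bases before to 50 after a gene's start. Among 718 rising genes with a window 4 held the ERSE (0.557%), among 851 falling genes 0 did, and among all 10447 tested genes with a window 18 did (0.172%). The 4 were Derl3, Creld2, Dnajc3 and Hsp90b1, all genes of ER folding or degradation. The UPRE was in 12 of the rising (1.67%), 9 of the falling (1.06%) and 106 of all windows (1.01%). A match describes letters in a window and is not a binding site. The windows of Derl3 (chr10:75893148-75893447, plus strand), Creld2 (chr15:88819396-88819695, plus strand) and Pou2af1 (chr9:51213440-51213739, plus strand) are shown because they carry a match in a gene that rose. Capitals mark the motif, which lies on the opposite strand for the ERSE of Derl3 and Creld2 and on the given strand for the UPRE of Pou2af1.
Derl3: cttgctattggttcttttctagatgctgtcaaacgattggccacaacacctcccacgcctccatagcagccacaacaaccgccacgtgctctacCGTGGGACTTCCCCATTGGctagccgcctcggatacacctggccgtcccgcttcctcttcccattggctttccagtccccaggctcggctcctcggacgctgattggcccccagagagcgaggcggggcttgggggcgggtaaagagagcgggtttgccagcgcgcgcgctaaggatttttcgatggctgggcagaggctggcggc
Creld2: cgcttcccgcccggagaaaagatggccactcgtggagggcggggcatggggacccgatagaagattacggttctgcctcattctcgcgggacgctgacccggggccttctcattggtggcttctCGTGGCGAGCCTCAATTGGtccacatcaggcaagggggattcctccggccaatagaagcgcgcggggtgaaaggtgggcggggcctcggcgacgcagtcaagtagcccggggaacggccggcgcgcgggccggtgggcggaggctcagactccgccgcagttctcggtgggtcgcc
Pou2af1: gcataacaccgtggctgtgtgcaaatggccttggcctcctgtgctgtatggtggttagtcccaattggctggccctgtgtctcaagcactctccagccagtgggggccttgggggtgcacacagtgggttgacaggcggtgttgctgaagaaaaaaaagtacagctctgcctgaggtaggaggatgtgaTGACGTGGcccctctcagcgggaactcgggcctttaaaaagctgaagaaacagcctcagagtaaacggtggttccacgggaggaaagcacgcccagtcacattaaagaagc
Creld2, an ER protein of the same response, rose by 0.72 ± 0.12 per doubling, with 102, 576, 313, 315 and 359 CPM in wild type and 84.5, 162, 359, 401 and 554 CPM in the mutant in order of rising share. Its wild-type level was highest in the second library of that order. The call on Creld2 ended without wild-type replicate 5 (adjusted p = 0.067).

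B cell genes rose in smaller number. Of 25 tested genes of B cell identity 10 rose, 0 fell and 15 did not pass (median slope 0.37), where 7.11% of all genes tested rose. Fcrla, an intracellular Fc receptor-like protein, rose by 1.25 ± 0.10, Cd79a, a signalling chain of the B cell receptor, by 1.17 ± 0.11, and the adaptor Blnk by 0.66 ± 0.09. Ms4a1, which encodes CD20, rose by 0.66 ± 0.15 and lay between 5.28 and 56.6 CPM. Pax5, the transcription factor of B cell identity that plasma cells silence, did not pass and lay between 0 and 2.21 CPM, with 1 library at 0. The summed level of the list ran from 811 to 1729 CPM in wild type and from 690 to 2089 CPM in the mutant. Its 10 rises became 6 with the length trend removed, 4 without wild-type replicate 5 or without mutant replicate 3, 6 without mutant replicate 2 or 5, 2 with code writing or the prefix in the model, and 0 with the replicate block. The part of B cells in the slopes was not tested.

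Genes of MHC class II, which present antigen, split into 2 patterns. On the list of 10 genes 4 rose and 0 fell (median 0.30), where 7.11% of all genes tested rose. Cd74, the invariant chain, rose by 1.04 ± 0.10, at 690, 3682, 3599, 4365 and 6064 CPM in wild type and 560, 1286, 3335, 3748 and 9007 CPM in the mutant, so the level also differed between replicates 4 and 5, which share a code prefix. H2-Ab1 and H2-Eb1, beta chains of class II molecules, had slopes of 0.56 ± 0.14 and 0.71 ± 0.17. In order of share H2-Ab1 stood at 174, 196, 561, 671 and 526 CPM in wild type and at 172, 121, 515, 558 and 441 CPM in the mutant. All 6 libraries with a leading zero thus lay above all 4 without one, and within either kind of code the level did not follow the share. With code writing in the model both slopes turned to -0.06, and with the prefix as a block to -0.07 for H2-Ab1 and -0.08 for H2-Eb1. H2-Eb1 also turned with the replicate block (-0.01), and H2-Ab1 among leading-zero codes alone (-0.25). The list's median was then -0.06 with code writing. Its 4 rises fell to 1 without wild-type replicate 5, mutant replicate 2 or mutant replicate 3, to 2 without wild-type replicate 2, and to 0 with the replicate block.

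The 2 transcripts behind the sorting gate moved in opposite directions. Ly6a, which encodes Sca-1 (chromosome 15, 74994877 to 74998031), stood at 238, 808, 945, 1479 and 4330 CPM in wild type and at 206, 328, 1185, 1397 and 4148 CPM in the mutant, in order of rising share. It was higher at every step in both genotypes, with a slope of 1.17 ± 0.17 (adjusted p = 0.0022). Kit, which encodes c-Kit (chromosome 5, 75574916 to 75656722), stood at 605, 384, 353, 190 and 126 CPM in wild type and at 435, 426, 215, 134 and 113 CPM in the mutant. It was lower at every step, with a slope of -0.58 ± 0.11 (adjusted p = 0.0156). In the mutant, Kit hardly differed between the 2 lowest shares, which have 1 code prefix. With code writing in the model Ly6a had 0.93 (adjusted p = 0.454) and Kit -0.36 (adjusted p = 0.953), and with the prefix as a block 0.69 (0.0571) and -0.25 (0.999). Under the replicate block they had 0.90 (0.606) and -0.31 (0.869). The call on Kit also ended without wild-type replicate 5 and without mutant replicate 3. Both transcripts were present in every library.

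Of the 8 tested Ly6 genes, a cluster of small surface proteins around Ly6a on chromosome 15 that was looked at after its values were seen, 7 rose and 0 fell. The share of rises over all genes tested was 7.11%. Ly6d, a marker of B lineage commitment, rose by 1.53 ± 0.18 and ran from 69.4 to 2107 CPM between the lowest and highest share in wild type and from 31.8 to 2151 CPM in the mutant. Ly6c2, found on monocytes and plasma cells, rose by 1.31 ± 0.17, from 452 to 8678 CPM and from 352 to 12438 CPM. Ly6i and Ly6k rose by 1.6 ± 0.22 and 1.53 ± 0.23, and Ly6e by 0.64 ± 0.12. Ly6k turned to -0.28 with the replicate block. Ly6e lost its call without wild-type replicate 5 or mutant replicate 3. Ly6g, a neutrophil antigen, had 0.36 and did not pass. Near copies in this cluster can share reads, so the levels of single members are uncertain.

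Genes tied to stem cells were lower where the share was higher. Of 33 tested genes of the stem cell list 10 fell, 0 rose and 23 did not pass (median -0.14), where 7.19% of all genes tested fell. Gata2, the zinc-finger factor whose enhancer is altered in the mutant (chromosome 6, 88193891 to 88207032), stood at 146, 106, 79.5, 73.8 and 61.8 CPM in wild type and at 218, 215, 141, 93.6 and 57.2 CPM in the mutant. It was lower at every step, with a slope of -0.43 ± 0.09 (adjusted p = 0.0183). Replicates 4 and 5 of the mutant, at shares of 12.2 and 3.67%, had nearly 1 level. Mecom, a transcription factor that stem cells need, stood at 78.1, 52.2, 32.2, 28.0 and 29.0 CPM in wild type and at 96.6, 90.2, 49.0, 23.6 and 31.7 CPM in the mutant, a slope of -0.51 ± 0.10. The homeobox gene Nkx2-3 fell by 0.45 ± 0.10 and the angiopoietin receptor Tek by 0.38 ± 0.11 per doubling. With code writing, with the prefix or with the replicate number in the model 0 genes of the list passed, and 3 fell with the length trend removed. The 10 falls became 0 without wild-type replicate 5, 1 without mutant replicate 3, 2 without mutant replicate 2, 4 without wild-type replicate 2, and 5 without mutant replicate 4 or 5. Gata2 itself lost its call without wild-type replicate 5 and without mutant replicate 3, and had -0.28 with code writing and -0.16 with the prefix as a block.

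Lists of other progenitor functions, of cell division and of stress had few calls. Over all genes tested 7.11% rose and 7.19% fell, and counts of 1 or 2 on these lists are near those shares. Of 18 ETS factors and partners of Gata2, 4 fell and 0 rose (median -0.14), among them Etv6 (-0.38 ± 0.08) and Gabpa (-0.35 ± 0.10). Of 17 cytokine receptors of progenitors 3 fell and 0 rose (median -0.10): Kit, the G-CSF receptor Csf3r (-0.46 ± 0.12) and the TGF-beta receptor Tgfbr2 (-0.31 ± 0.07). Of 18 lymphoid-primed genes 2 rose, Ly6d and the adaptor Lax1 (0.37 ± 0.08), and Notch1 fell (-0.51 ± 0.10, but 0.11 with the replicate block). Of 16 granulocyte-monocyte progenitor genes Csf3r fell and 0 rose. Of 20 genes of mitosis 5 fell and 0 rose (median -0.20), among them the antigen Mki67 (-0.27 ± 0.07), the spindle motor Kif11 (-0.32 ± 0.08) and the checkpoint kinase Bub1b (-0.46 ± 0.12). Of 22 genes of DNA replication 2 fell and 0 rose (median -0.24), the helicase subunit Mcm2 (-0.45 ± 0.13) and the polymerase Pole (-0.27 ± 0.08). With the prefix as a block Bub1b turned to 0.01 and Mcm2 to 0.0015. Of 22 immediate early genes 0 passed, and of 13 heat shock genes Bag3 alone fell (-0.43 ± 0.11). Of 19 megakaryocyte and platelet genes 3 fell and 0 rose, the integrin chain Itga2b (-0.45 ± 0.11), the thrombin receptor F2r (-0.50 ± 0.13) and Selp (-0.29 ± 0.08). With code writing, the prefix or the replicate number in the model 0 falls remained past the threshold in these lists, except 2 of granulocyte-monocyte progenitors, Mpo and Ms4a3, under the replicate block. Without wild-type replicate 5 or without mutant replicate 3 these lists had 0 falls and at most 1 rise. Without wild-type replicate 2 or mutant replicate 2 mitosis, DNA replication, heat shock and granulocyte-monocyte progenitors had 0 falls. Without mutant replicate 2 the ETS, cytokine receptor and megakaryocyte lists had 1 fall each. Without wild-type replicate 2 or mutant replicate 5 they had 2, 2 and 0, and without mutant replicate 4 they had 2, 3 and 0. Mitosis had 3 falls without mutant replicate 1 or 4 and 2 without mutant replicate 5, and DNA replication 5 without wild-type replicate 4 and at most 1 without any other single library but wild-type replicate 1.

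Markers of further cell types that a sorted marrow sample could hold passed in small numbers. The shares over all genes tested were 7.11% rising and 7.19% falling, and counts of 1 or 2 on these lists are near them. Of 15 genes of mast cells, basophils and eosinophils 3 rose and 0 fell (median 0.55), all of eosinophils: Prg2, the major basic protein (1.55 ± 0.26), Prg3 (1.08 ± 0.31) and the interleukin-5 receptor Il5ra (0.70 ± 0.12), which B lineage cells also carry. Prg2 stood at 115, 191, 312, 287 and 1972 CPM in wild type and at 14.6, 152, 431, 589 and 2651 CPM in the mutant. The mast cell protease Mcpt4 was at 0 in all 10 libraries. Of 14 neutrophil granule genes Camp alone rose (0.81 ± 0.24), and it turned to -0.28 with the prefix as a block and to -0.08 with the replicate block. Camp stood at 4132 and 4637 CPM in replicate 3 of the 2 genotypes and at 289 to 1180 CPM in the other 8 libraries. Of 18 monocyte and macrophage genes Ly6c2 and Cd68 (0.45 ± 0.10, but -0.14 with the replicate block) rose. Of 12 plasmacytoid dendritic cell genes 3 rose: Ly6c2, Bst2 (0.45 ± 0.10) and Cox6a2 (1.00 ± 0.15, but -0.14 among leading-zero codes alone). Siglech, their defining receptor, lay between 0 and 6.66 CPM. Of 15 T and NK cell genes Cd7 alone rose (0.45 ± 0.13, but -0.52 with the replicate block), and Cd3e was at 0 in 4 and Cd8a in 6 of the 10 libraries. Of 14 endothelial and stromal genes 2 rose and 3 fell. The junction protein Cldn5 rose by 1.54 ± 0.38 and turned to -0.32 with the prefix as a block; the receptors Tie1 and Tek fell. Of 17 erythroid genes 0 passed. Without wild-type replicate 5, or without mutant replicate 3, the lists of neutrophil, T and NK and endothelial genes had 0 calls, and the lists of eosinophil, monocyte and plasmacytoid genes 1 or 2 rises. The neutrophil list had 6 rises without wild-type replicate 4 and 2 falls without wild-type replicate 1. The T and NK list had 0 calls without any 1 library other than wild-type replicates 1 and 4. The endothelial list had 0 calls also without wild-type replicate 2 or mutant replicate 2. The summed levels of the mast cell, basophil and eosinophil list ran from 267 to 2364 CPM in wild type and from 192 to 3158 CPM in the mutant. Those of the neutrophil list ran from 5046 to 27466 and from 6376 to 32731 CPM. Their part in the slopes was not tested.

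Of 21 interferon-stimulated genes 3 rose and 2 fell (median -0.10), where 7.11% of all genes tested rose and 7.19% fell. Zbp1, a sensor of nucleic acids, rose by 0.73 ± 0.11, Ifi27l2a by 0.85 ± 0.22, and Bst2, counted above as well, made the third. The list had 1 rise and 0 falls without wild-type replicate 5 or mutant replicate 3, 2 rises and 0 falls without wild-type replicate 2 or mutant replicate 2 or 4, and 2 rises and 1 fall without wild-type replicate 3 or mutant replicate 5. It had 3 rises and 0 falls without mutant replicate 1. Ifi27l2a lost its call in 7 of the 10 fits without 1 library, all but those without wild-type replicate 1 or 4 or mutant replicate 1. With code writing, the prefix or the replicate number in the model 0 genes of the list passed. All 32 tested ribosomal protein genes had a positive slope (median 0.34), although Rpl23 alone passed (0.47 ± 0.14). With upper quartile factors 21 of them passed, without wild-type replicate 1 7 passed, and on the TPM scale 0 with a median of 0.10. Of 25 genes of oxidative phosphorylation 11 rose and 0 fell (median 0.32), among them Ndufa1 (0.80 ± 0.17), Ndufa2 (0.53 ± 0.14) and Sdhc (0.32 ± 0.08). The 11 rises became 4 with no scaling factor and 2 on the TPM scale. They became 0 without wild-type replicate 5 or mutant replicate 3, 1 without wild-type replicate 2, mutant replicate 2 or mutant replicate 4, 3 without mutant replicate 5, and 0 with code writing, the prefix or the replicate number in the model. Rpl23 turned to -0.01 with the prefix as a block and to -0.18 with the replicate block, and Sdhc to -0.13 with the latter.

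**Figure D3:**
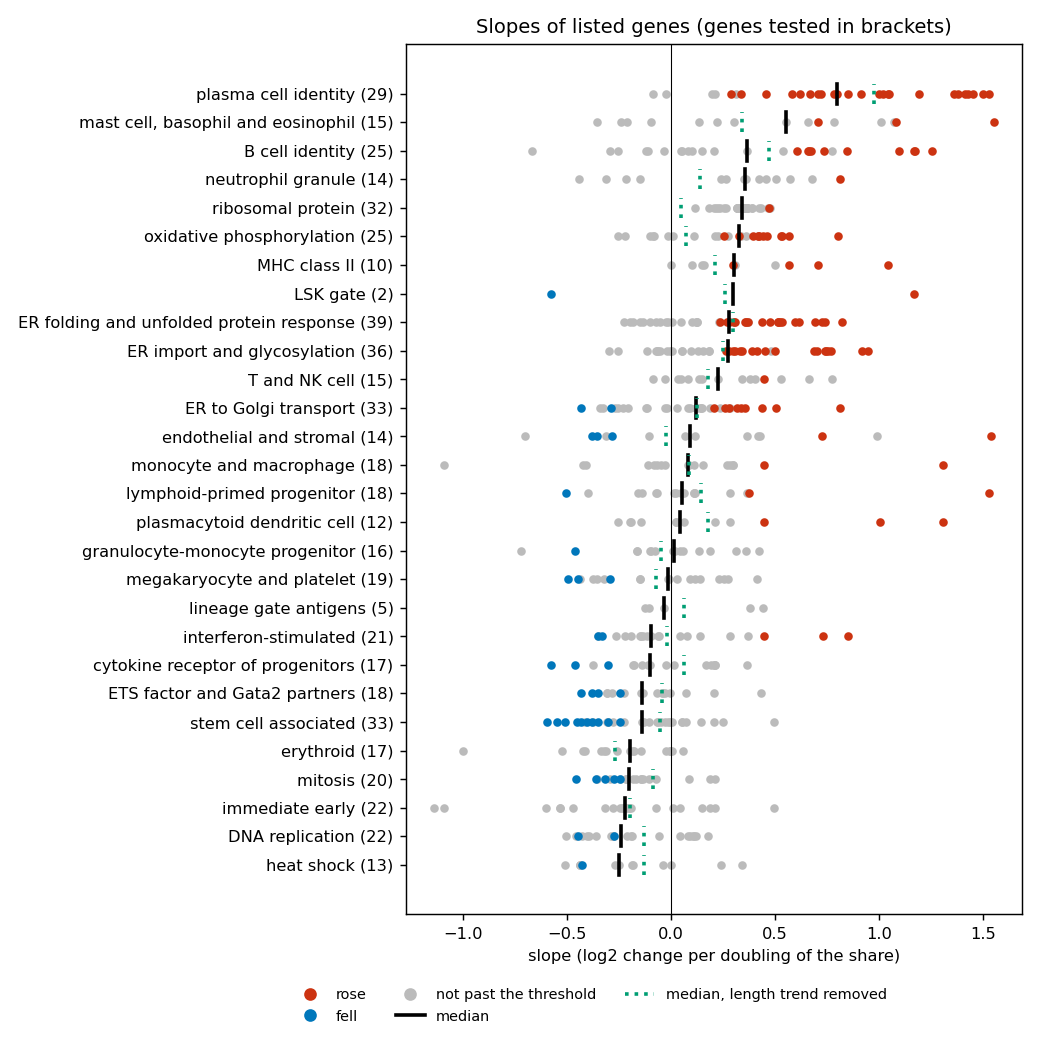
Slopes (x axis, log2 change per doubling of the share) of the tested genes of 28 lists, 1 row per list with the number tested in brackets and 1 point per gene; red rose, blue fell, grey did not pass, the bar is the list's median and the dotted bar its median with the length trend removed. The plasma cell list has the highest median (0.80) and the heat shock list the lowest (-0.25); the medians of the ribosomal protein and oxidative phosphorylation lists shrink to 0.05 and 0.07 with the length trend removed.

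Slopes followed transcript length across all genes. The genes tested were split by length into 4 groups of like size. In the group with the shortest transcripts (105 to 1395 bases) 18.4% rose and 0.331% fell, with a median slope of 0.23. In the group with the longest (3323 to 123179 bases) 2.24% rose and 18.1% fell, with a median of -0.19. The median length was 1075 bases for rises, 3695 bases for falls and 2223 bases over all genes tested. With the trend of the counts with length removed in each library, the medians of all 4 groups lay between -0.01 and 0.01, which the removal itself brings about. In that fit 749 genes rose (5.17%) and 241 fell (1.66%), 75.7% of calls in the rising direction. Of the 1031 rises 1003 kept a positive slope there and of the 1042 falls all 1042 kept a negative one. Plasma cell genes, whose median length is 2835 bases, had 25 rises and a median of 0.98 after this step, more than before it. ER import and ER folding had 20 and 23 rises. The stem cell list had 3 falls and a median of -0.05, and oxidative phosphorylation 2 rises and a median of 0.07. The part of RNA quality or of library making in the trend with length was not tested.

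**Figure D4:**
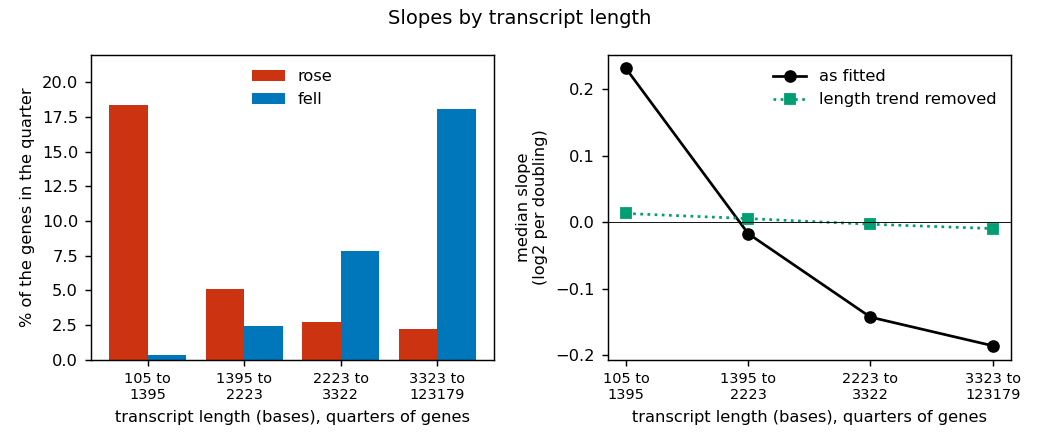
Left, the percentage of genes that rose (red) or fell (blue) with the share in each of 4 groups of transcript length (x axis, bases); right, the median slope per group (y axis, log2 change per doubling) as fitted and with the length trend removed. Rises drop from 18.4 to 2.24% and falls climb from 0.331 to 18.1% from the shortest to the longest group. The medians lie near 0 once the trend is removed, which the removal itself brings about.

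Genes with the steepest slopes were named among those with a mean of at least 5 CPM, 773 rises and 996 falls after unnamed models were passed over. The 12 largest rises were Ankrd55 (1.83 ± 0.19), Ly6i, Prg2, Cldn5, Ly6d, Ly6k, Tnfrsf17, Kcnmb4os2 (1.47 ± 0.14), Jchain, Oosp1 (1.45 ± 0.16), Derl3 and Mzb1. Of these 12, 5 are on the plasma cell list, with Ly6d on the lymphoid-primed list as well. Ankrd55 (chromosome 13, 112288451 to 112384002) stood at 0.472, 6.52, 7.81, 6.11 and 9.54 CPM in wild type and at 0.0489, 0.945, 5.48, 4.21 and 16.6 CPM in the mutant, in order of rising share. Oosp1, which encodes an oocyte-secreted protein, stood at 8.97, 66.7, 53.6, 95.0 and 228 CPM and at 6.60, 14.7, 64.1, 80.4 and 303 CPM. Kcnmb4os2 is an antisense transcript of Kcnmb4, a potassium channel subunit that rose as well (1.36 ± 0.14); without a stated strand of counting the reads of the 2 cannot be told apart. A few more steep rises were picked after the values were seen, from no list and with no count of related genes. Cacna1s, a voltage-gated calcium channel subunit, rose by 1.27 ± 0.14, from 4.29 to 37.8 CPM in wild type and from 1.81 to 82.0 CPM in the mutant between the lowest and highest share. Ryr1, the calcium release channel, rose by 1.28 ± 0.17 and Stac2, an adaptor of such channels, by 1.29 ± 0.18. Cacna1s, Ryr1, Stac2 and Kcnmb4 passed in each of the 10 fits that left out 1 library and with the prefix as a block, and none of them with the replicate block. Of the 12 largest rises Cldn5 lost its call in 5 of those 10 fits (without wild-type replicate 2 or 5 or mutant replicate 2, 3 or 5), and the other 11 kept theirs.

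The 12 largest falls included Nynrin (-1.41 ± 0.41), the chromatin assembly factor Chaf1a (-0.81 ± 0.21), the nuclear receptor Hnf4a (-0.81 ± 0.14), the adhesion protein Vcl (-0.79 ± 0.21), Hmgxb3 (-0.76 ± 0.21), the exchange factor Arhgef11 (-0.75 ± 0.18), the inflammasome sensor Nlrp1a (-0.74 ± 0.20), the phospholipase Plcb3 (-0.74 ± 0.19), the chromatin remodeller Srcap (-0.74 ± 0.09), the ribosome assembly factor Rrp12 (-0.69 ± 0.17) and Arhgap32 (-0.69 ± 0.09). Nynrin stood at 29.5, 16.5, 7.87, 1.61 and 0 CPM in wild type and at 18.3, 24.7, 4.82, 1.40 and 0.208 CPM in the mutant. One library had no read of it, where 3 counts would come to 0.267 CPM, so its fitted slope depends on the prior count. Chaf1a stood at 74.2, 64.3, 45.0, 19.0 and 5.08 CPM in wild type and at 86.8, 89.4, 19.7, 24.0 and 11.3 CPM in the mutant. Hnf4a stood at 56.7, 42.0, 31.3, 14.1 and 8.50 CPM and at 32.6, 12.8, 9.31, 5.48 and 1.98 CPM. It was lower in replicate 4 than in replicate 5 of the mutant, which have 1 code prefix, as were Srcap, Arhgap32 and Arhgef11; the other 7 of the 11 named here were higher there in replicate 4. Hnf4a, Srcap and Arhgap32 passed in all 10 fits without 1 library. The other 8 lost the call in 3 to 7 of them, each without wild-type replicate 5 and without mutant replicate 3, and some also without wild-type replicate 2 or 3 or mutant replicate 1, 2 or 4. Their highest adjusted p in these fits lay between 0.109 and 0.136. Hmgxb3 turned to 0.04 with the prefix as a block and Plcb3 to 0.13 with the replicate block. None of these falls passed with code writing, with the prefix or with the replicate number in the model.

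**Figure D5:**
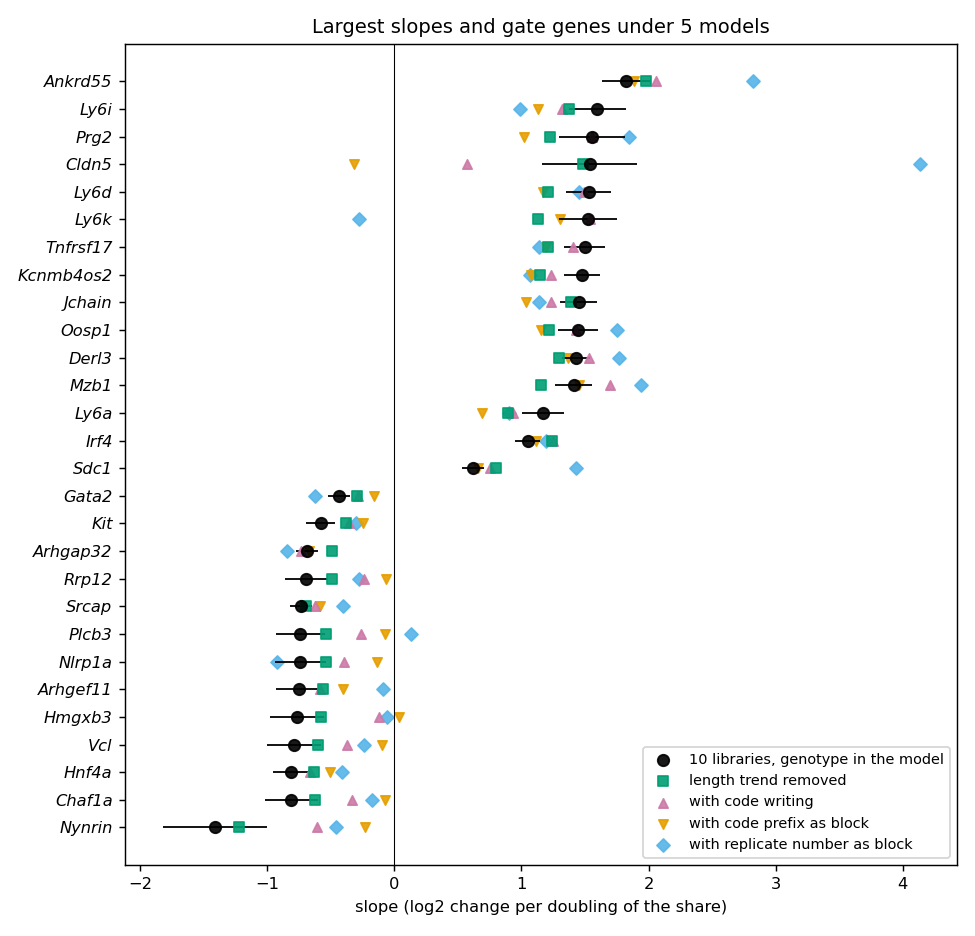
Slopes (x axis, log2 change per doubling of the share) of 23 of the 24 genes with the largest rises and falls and of 5 further defining genes under 5 models; black points are the fit of the 10 libraries with genotype in the model, with bars of 1 SE. Derl3 lies at 1.43 as fitted, 1.53 with code writing, 1.36 with the prefix and 1.77 with the replicate block, whereas Cldn5 and Ly6k cross 0 in 1 model each; of the 11 falls drawn Hmgxb3 and Plcb3 cross 0 and all 11 lie nearer 0, or beyond it, with the prefix as a block.

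Of the 113 genes chosen for naming, 89 were followed through the other fits, and 88 of these passed as fitted. The set was thus made almost wholly of called genes. With code writing in the model 16 of the 88 passed, with the prefix as a block 27 and with the replicate block 4 (Mzb1, Derl3, Pou2af1 and Ly6d). The adjusted p of the rest under the replicate block ran from 0.0511 to 0.995. Of the 88, 35 passed in every fit that left out 1 library, 36 without wild-type replicate 5 and 42 without mutant replicate 3, and 0 changed direction in any of these fits. The 35 included Jchain, Irf4, Sdc1, Ly6a, Prdm1, Xbp1, Slamf7, Edem1, Cd79a and Cd74.

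The 6 libraries from 5-FU-treated mice were not used for the slopes and gave a second reading of the same genes. The mutant 5-FU replicates 3, 2 and 1 had shares of 5.69, 16.9 and 26.6% and codes with 1 prefix. In that order Jchain stood at 2135, 11392 and 21925 CPM, Irf4 at 13.9, 45.5 and 85.0 CPM, Sdc1 at 47.2, 158 and 213 CPM, and Derl3 at 42.6, 103 and 200 CPM. All 4 were higher at each higher share. Of 29 plasma cell genes 28 were higher in replicate 1 than in replicate 3, with a median log2 ratio of 1.91. Ly6a stood at 597, 795 and 938 CPM. Kit stood at 155, 269 and 156 CPM and Gata2 at 252, 269 and 217 CPM, so neither declined steadily as in the PBS libraries. Of the 33 stem cell genes 24 were higher in replicate 1, with a median log2 ratio of 0.28, the direction opposite to their PBS slopes. Among all 1031 rises of the PBS libraries 387 (37.5%) were ordered upward with the share in these 3 libraries, against 19.2% of all genes tested. Among the 1042 falls 99 (9.5%) were ordered downward, against 18.6% of all genes tested, and 301 (28.9%) were higher in replicate 1 than in replicate 3, against 49.6%. These are descriptions of 3 libraries, with no test.

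The wild-type 5-FU libraries had shares of 0.0419 to 0.335%, below every PBS library. Jchain stood there at 43.9, 11.4 and 119 CPM in replicates 1 to 3, against at least 1593 CPM in the PBS libraries. Irf4 stood at 0.763, 0.355 and 0.694 CPM and Sdc1 at 19.2, 17.1 and 21.2 CPM, also below every PBS library. In all 3 of these libraries 437 of the 1031 rises (42.4%) lay below every PBS library, against 10.8% of all genes tested. Of the 1042 falls 428 (41.1%) lay above every PBS library, against 13.6%. The drug and the share cannot be told apart in this group.

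With the share in the model the 2 genotypes could be compared at like share. Of 14497 genes 2 differed (0.0138%), both higher in the mutant, where the same 10 libraries without the share in the model called 0. Selp, which encodes P-selectin of platelets and endothelium, stood at 21.1, 14.5, 13, 14.9 and 8.92 CPM in wild type and at 60.6, 55.6, 44.6, 32 and 28.6 CPM in the mutant, in order of rising share. The 2 genotypes did not overlap, but the gene was named because it passed for genotype, so this is no further evidence. The log2 difference was 1.48 ± 0.18 (adjusted p = 0.0405) with the share in the model and 1.59 (adjusted p = 0.327) without it. Slamf1, which encodes the stem cell antigen CD150, stood at 6.61, 5.41, 7.05, 6.67 and 3.11 CPM in wild type and at 27.9, 20.1, 24.6, 15.6 and 23.2 CPM in the mutant. The genotypes were apart here too, with the same limit. The log2 difference was 1.89 ± 0.25 (adjusted p = 0.046), against 1.93 (adjusted p = 0.133) without the share. Slamf1 itself did not pass for the share (-0.10 ± 0.10, adjusted p = 0.463), and its slope turned to 0.16 with the replicate block and to 0.05 with the length trend removed. The count of 2 became 0 without any 1 library other than wild-type replicate 3, without which it was 3, and 0 with no scaling factor; DESeq2 called 35 genes and limma-voom 49. No code prefix occurs in both genotypes, so prefix and genotype cannot be told apart.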

How the data were processed

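RNA from sorted LSK cells was purified with RNeasy Micro and made into libraries with the NuGEN Ovation Ultralow system, per the labels' protocols. The authors deposited 1 gene table per library with expected counts, TPM (length-scaled transcript abundance) and transcript length, as RSEM writes them, per the file headers. The submitters' processing notes name RSEM 1.3.1, FastQC 0.11.2 and the builds mm10 and GRCm38. Which aligner, gene annotation and strand setting were used is not given in the sources used here.

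Expected counts were rounded to whole numbers. The share was computed as stated in the report. Besides the 381 immunoglobulin genes by prefix, 15 other immunoglobulin segments were left out of all scaling and tests. Library factors were TMM over the remaining genes (0.838 to 1.11), and genes were kept by filterByExpr with a minimum count of 10. Slopes came from edgeR 4.0.16 (R 4.3.3), a robust quasi-likelihood F test on the 10 PBS libraries with genotype and the log2 share in the model, adjusted by Benjamini-Hochberg over all 14497 genes, threshold 0.05. The SE is the slope divided by the square root of F. Printed CPM use TMM factors over all 16 libraries. DESeq2 1.42.0 and limma 3.58.1 were alternatives; TPM was used on a log2 scale with a pseudocount of 1. On simulated data 54.7% of 106 genes with a slope of 0.5 and 87.6% of 89 genes with a slope of 1 were recovered among 14238 genes, with 4 false calls. The simulated counts were independent between genes and libraries, with no genotype effect, no structure by code or replicate number and no length trend. The 4 false calls therefore do not measure those in the real libraries.

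Replicate numbers come from the labels, and the PBS libraries of the 2 genotypes share them. The deviations of same-numbered libraries from their group means correlated at 0.197, 0.410, 0.712, 0.564 and 0.764 for numbers 1 to 5, each above 0.1, so the fit with the replicate block is given beside the results it changes. The highest correlation of each wild-type library with a mutant library of another number was 0.211, 0.267, 0.206, 0.418 and 0.672. Genes that follow the share raise these correlations too, so they do not show a pairing. The members, the gene lists and the tests were chosen with earlier results of these data known. Named genes are Jchain, Sdc1, Irf4, Kit, Ly6a and Gata2, the 12 largest rises and 12 largest falls past the threshold with a mean of at least 5 CPM and 1 sign in both genotypes, up to 3 called genes of smallest p per list, and genes said to have been chosen after their values were seen. Ms4a1, Creld2, Xbp1, Prdm1, Hspa5, Ly6e, Cacna1s, Ryr1, Stac2 and Kcnmb4 were also named after their values were seen. One of the 12 falls and 1 gene of the B cell list are not reported here by name. Coordinates are from GENCODE M21, in which 99.92% of tested genes were found and 98.41% had the same symbol.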

Additional observations from a re-analysis of the deposited data

Results flagged for a closer look

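In 12 of the 178 groups of 5 libraries examined, 1 library stood far from the other 4. Of the 89 genes examined 88 had passed for the slope on the share. The log2 share of wild-type replicate 5 (2.67) itself lies far from those of the other wild-type PBS libraries (4.66 to 5.47). Chance marks about 1 group in 20 only where groups are unselected and independent, so that rate cannot be set beside this count. All 12 concern wild-type replicate 5 of the PBS libraries, which has the lowest share of its group (6.38%). It was low for the plasma cell genes Sdc1 (136 CPM, the others from 303 to 397), Pou2af1 (52.6 CPM, the others from 226 to 409) and Xbp1 (425 CPM, the others from 1685 to 2460). Among ER genes it was low for Edem1 (153 CPM, the others from 545 to 640.1), Ero1lb (35.2 CPM, the others from 87.7 to 92.2) and Kdelr3 (1.38 CPM, the others from 5.08 to 7.63). Blnk had 28.9 CPM there (others from 75.8 to 91.6), Cd74 had 689.7 CPM (others from 3599 to 6064) and Il5ra 6.22 CPM (others from 23.7 to 31.2). Ankrd55 had 0.472 CPM (others from 6.11 to 9.54) and Cacna1s 4.29 CPM (others from 23.1 to 37.8). Arhgap32 was high there, at 44.6 CPM against 9.96 to 13.4 CPM. No mutant group was marked.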

How the results depend on the processing

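As reported, 1031 genes rose and 1042 fell. The rises numbered 2161 with upper quartile factors, 604 with no factor, 2326 by DESeq2, 2015 by limma-voom and 369 by limma-trend on TPM. They numbered 2728 on the share as a percent, 1832 on its log2 odds and 213 on the share from TPM. The falls numbered 1658 with no factor, 1711 by DESeq2, 2850 by limma-voom, 3088 on TPM, 3399 on the percent, 1920 on the log2 odds, 55 on the share from TPM, 1778 without the 2 libraries farthest from the median share and 241 with the length trend removed. Rises and falls were 53 and 0 with code writing, 89 and 5 with the code prefix as a block, 0 and 0 in wild type alone, 109 and 2 in the mutant alone, 438 and 317 without replicate 3 of both genotypes, 1639 and 2454 with leading-zero codes alone, and 109 and 21 with the other codes alone. The last 3 settings and the length trend were added after the data were seen. Leaving out 1 library gave 134 to 1178 rises and 6 to 1450 falls, and 0 to 3 genes for genotype. The genotype count of 2 became 0 with no factor, 35 by DESeq2 and 49 by limma-voom. The causes were not tested.

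With the replicate block 5 genes rose and 2 fell. It turned Ly6k to -0.28, Plcb3 to 0.13, H2-Eb1 to -0.015, Notch1 to 0.11, Camp to -0.082, Cd68 to -0.14, Cd7 to -0.52, Rpl23 to -0.18, Sdhc to -0.13 and Slamf1 to 0.16. With code writing H2-Eb1 turned to -0.065 and H2-Ab1 to -0.064. With the prefix as a block, and with the codes without a leading zero alone, Cldn5 turned to -0.32 and -0.34, Hmgxb3 to 0.037 and 0.094, H2-Eb1 to -0.084 and -0.096, H2-Ab1 to -0.069 and -0.081, Camp to -0.28 and -0.30, Mcm2 to 0.0015 and 0.028, Bub1b to 0.011 and 0.022, and Rpl23 to -0.011 and -0.039. Leading-zero codes alone turned Kdelr3 to -0.19, H2-Ab1 to -0.25 and Cox6a2 to -0.14. Removing the length trend turned Slamf1 to 0.048. A covariate, a block or a smaller set of libraries leaves less of the range of shares, or fewer libraries, to fit a slope. Under the replicate block only differences of 0.07 to 1.05 on the log2 scale remain. None of the genes listed as turned by that block passed there. Whether a turned slope differs from that of the main fit was not tested. The depth puts the floor of 3 counts at 0.131 to 0.269 CPM in the PBS libraries, and differences below it were not detectable.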
